A study of Mus musculus with 4 samples.

Results

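In CA1 hippocampal tissue of mouse, 3676 autosomal regions carried near-complete DNA methylation in every library of the study. They were chosen by their measured levels: a region was taken when its methylation level was 95% or more in each of the 4 libraries and its length was 300 to under 10000 bp. They made up 0.472% of the 778596 autosomal regions of that length with a value in all 4 libraries (called eligible regions below) and were drawn from 849172 regions in all. A further 44 autosomal regions of that length lacked a value and were left out. Because the levels chose these regions, their counts, lengths and gene shares are given as descriptions with no test.

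The assay was whole-genome bisulfite sequencing, run on whole CA1 tissue from C57B6/J mice aged 117 d, in 2 groups of 2 libraries. The control libraries are labelled Tet2+f and the others Tet2+f_Camk2aCre. The Tet2+f part is read here as heterozygous for a floxed Tet2 allele, which the labels do not spell out. Both groups share it and differ by the Cre driven from Camk2a, a gene of excitatory forebrain neurons. There is no group with the Cre alone, so the Cre and the allele it acts on cannot be told apart, and cells in which the Cre does not act are part of the same tissue. The labels do not say whether libraries of a group are separate animals, so any p measures only the spread between these libraries. The labels state 500000000 paired reads of 150 bp per sample. The table has no read coverage per region, which leaves the depth of a single level unknown, and a level of exactly 100% can come from few reads.

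Cytosine methylation in mammals is found mostly at CG dinucleotides, where Dnmt1 copies it to the new strand after replication and Dnmt3a and Dnmt3b lay it down anew. TET enzymes, Tet2 among them, oxidise it to 5-hydroxymethylcytosine, and bisulfite sequencing reads both forms as methylated, so a level here is their sum. In adult tissue most of the genome is methylated to a high but incomplete level, CG-dense promoters are largely free of it, and the bodies of transcribed genes are well methylated. Promoters of germline genes are a known exception, since many are CG-rich and yet methylated in somatic cells.

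Promoters were rarely inside these regions, which covered 5.11 Mb against 2309 Mb in the other eligible regions. Of 25896 RefSeq promoter windows (250 bases before to 50 after a start, on GRCm38.p6, the assembly of the mm10 coordinates) with 150 or more bases inside an eligible region, 36 had as many inside a fully methylated one (0.139%). The 4 shown were picked, after their values were seen, among named coding genes with at least 150 bases inside such a region, to span CG-rich to CG-poor starts, 2 of them of germline genes; capitals mark CG, which reads the same on both strands, and each window is printed 5′ to 3′ on the gene's strand. Dazl encodes an RNA-binding protein of germ cells (chr17:50293571-50293870, minus strand, 28 CG, 182 bases inside the region). Sohlh2 encodes a transcription factor of early germ cells (chr3:55181794-55182093, plus strand, 17 CG, 151 bases inside). Rpl10l encodes a testis paralogue of a ribosomal protein (chr12:66284352-66284651, minus strand, 13 CG, wholly inside). Cct8l1 is named for its likeness to a chaperonin subunit (chr5:25515817-25516116, plus strand, 3 CG, wholly inside).
Dazl: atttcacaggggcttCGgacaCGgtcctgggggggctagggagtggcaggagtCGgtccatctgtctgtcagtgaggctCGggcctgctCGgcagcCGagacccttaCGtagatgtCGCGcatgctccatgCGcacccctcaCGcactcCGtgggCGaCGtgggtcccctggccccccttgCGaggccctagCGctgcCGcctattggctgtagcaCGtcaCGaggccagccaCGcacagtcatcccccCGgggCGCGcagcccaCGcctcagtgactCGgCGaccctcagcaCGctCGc
Sohlh2: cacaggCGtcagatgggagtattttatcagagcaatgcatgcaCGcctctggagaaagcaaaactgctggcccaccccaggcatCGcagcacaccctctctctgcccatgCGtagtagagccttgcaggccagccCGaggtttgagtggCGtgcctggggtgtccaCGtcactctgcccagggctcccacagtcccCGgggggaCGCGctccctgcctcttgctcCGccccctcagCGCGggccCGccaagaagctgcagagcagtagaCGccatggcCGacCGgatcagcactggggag
Rpl10l: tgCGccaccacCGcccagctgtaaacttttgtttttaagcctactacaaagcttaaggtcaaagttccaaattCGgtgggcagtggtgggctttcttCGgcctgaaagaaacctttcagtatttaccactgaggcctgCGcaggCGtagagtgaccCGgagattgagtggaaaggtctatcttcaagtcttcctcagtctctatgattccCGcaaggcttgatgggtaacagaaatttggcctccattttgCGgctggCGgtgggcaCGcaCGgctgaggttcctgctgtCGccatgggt
Cct8l1: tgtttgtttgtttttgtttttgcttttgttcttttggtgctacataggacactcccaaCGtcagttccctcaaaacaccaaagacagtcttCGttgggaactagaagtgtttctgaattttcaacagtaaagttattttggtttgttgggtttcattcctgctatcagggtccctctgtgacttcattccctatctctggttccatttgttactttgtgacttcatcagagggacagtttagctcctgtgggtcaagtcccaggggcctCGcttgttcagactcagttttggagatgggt

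The region just upstream of the Dazl start (chr17:50293689-50294066, 378 bp) was at 98.2% and 100% in control and 98.3% and 98.004% in Cre. The 227 bp next to it, which hold the start itself, were between 93.3% and 97.1%. Further into the gene the level fell over a short stretch. The next 390 bp were at 71.1%, 68.8%, 66.4% and 79.9% in control 1, control 2, Cre 1 and Cre 2. In the same order, the 171 bp after those were at 0%, 0%, 0.855% and 1.35%, and the following 313 bp at 0%, 0%, 1% and 0%. The 6002 bp beyond were methylated again, at 61.6%, 59.3%, 59.4% and 60.4%. At Sohlh2 the region over the start (chr3:55181943-55182381) was at 97.6% and 95.1% in control and 97.0% and 97.8% in Cre, and the next 559 bp into the gene lay between 94.4% and 98.4%. At Rpl10l (chr12:66284350-66285654) the levels were 97.3%, 96.8%, 95.7% and 97.9%. At Cct8l1 (chr5:25514793-25516615) they were 96.5% and 95.1% in control and 96.1% and 95.6% in Cre, against 78.2% to 85.4% in the next region of 1363 bp. In none of these 4 regions did the 2 groups separate.

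In all, 48 promoter windows touched a fully methylated region by at least a base, at 45 genes, and 32 of these carry predicted or clone names. The other 13 were named coding genes: the germ cell or testis genes Dazl, Sohlh2, Stra8, Naa11, Rpl10l, Tuba3a and Tktl2, and Jade1, Vrk1, Smlr1, Cct8l1, Tgfbr1 and Fat1. In 8 of the 13 genes, 150 or more bases of the window were inside. Only 6 bases were inside for Stra8, 14 for Tuba3a and for Jade1, 78 for Naa11 and 119 for Tktl2. Germ cell and testis genes whose windows lay in other eligible regions were not counted, so the list shows no enrichment of such genes. For Vrk1, Tgfbr1 and Fat1 the window belongs to a start that RefSeq places well inside the gene. Among the 36 windows with 150 or more bases inside, the median was 8 CG and 2 windows (5.56%) held 20 or more, while the other eligible windows had a median of 5 CG and 14.8% held 20 or more. Over the 3546 fully methylated regions on chromosomes with promoter entries, 1.16% touched a promoter window, against 4.04% of other eligible regions. Lengths were not matched in this comparison, and fully methylated regions were mostly shorter, as given below. Of 869 microRNA hairpins that touched an eligible region, 1 touched a fully methylated region, Mir692-1 (chr17:6895229-6895337), whose mature sequence is shown with its seed, bases 2 to 8, in capitals.
mmu-miR-692: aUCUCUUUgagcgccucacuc

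That region of 2427 bp was at 95.3% and 96.8% in control and 97.3% and 96.4% in Cre. The files do not show whether reads there could also come from near-identical copies of the hairpin.

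Fully methylated regions were short. Their median length was 1049 bp, with quartiles of 620 and 1775 bp, against 2592 bp (1749 and 3875 bp) for the other eligible regions, a ratio of 2.47. In all they covered 5.11 Mb of genome. Of them 1748 (47.6%) were under 1000 bp, a length that only 7.23% of other eligible regions had. The share of regions that were fully methylated fell with each step in length, from 3.54% of the 17281 regions of 300 to under 500 bp to 0.842% at 1000 to under 1500 bp, 0.212% at 2000 to under 3000 bp and 0.0401% of the 52355 regions of 6000 to under 10000 bp. How the authors drew the regions is not given in the sources used here, so what sets a region's length is not known from these files.

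**Figure D1:**
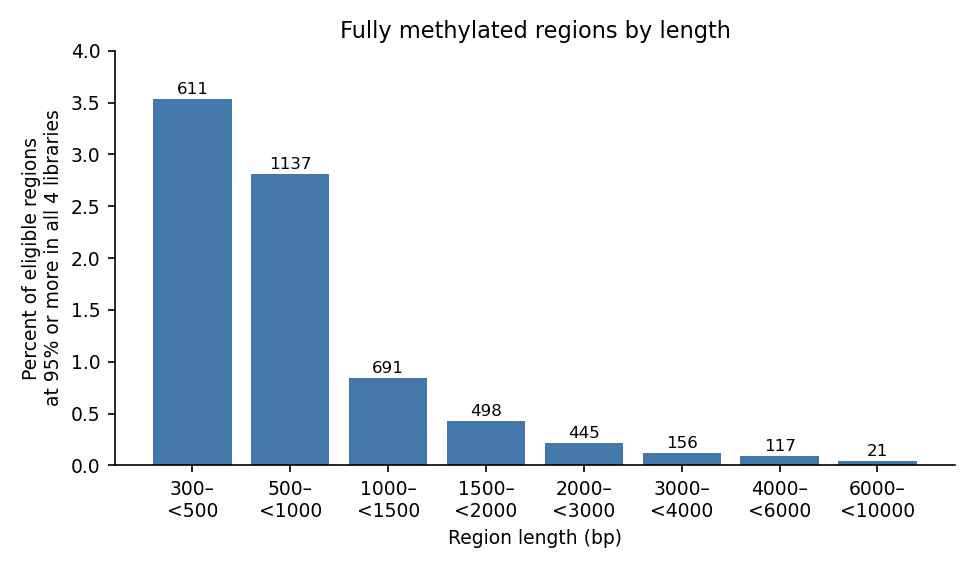
Percent of eligible regions at 95% or more in all 4 libraries (vertical axis) by region length in bp (horizontal axis), with the number of fully methylated regions above each bar. The share falls at every step, from 3.54% to 0.0401%.

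Short length was not a steady companion of high methylation. Among eligible regions with a mean level under 50%, the median length was 936 bp and 53.1% were under 1000 bp. The median was 2528 bp for mean levels of 50 to under 80%, 3106 bp for 80 to under 90% and 2251 bp for 90 to under 95%. Another 10671 regions averaged 95% or more without reaching it in every library, and their median length was 1339 bp. Both the least and the most methylated regions were therefore shorter than those between.

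The longest fully methylated region lay in Cep70, which encodes a centrosomal protein (chr9:99265121-99273726, 8606 bp), at 95.6% and 96.9% in control and 96.6% and 95.02% in Cre. The next longest lay in Auts2, a transcriptional regulator of neurodevelopment (chr5:132173518-132181439, 7922 bp, between 95.8% and 98.3%). The third overlapped Tug1, a long noncoding RNA (chr11:3638064-3645792, 7729 bp, between 95.8% and 98.1%). The shortest was a 300 bp region with no gene name (chr9:114874355-114874654), at 99.7% and 99.5% in control and 98.2% and 98.9% in Cre. The next were in Coro2b, a coronin that binds actin (chr9:62439929-62440231, 303 bp, between 97.4% and 99.4%), and Mark1, a microtubule affinity-regulating kinase (chr1:184956565-184956869, 305 bp, between 96.9% and 99.5%).

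Most of the regions sat close to the threshold. In 2448 (66.6%) the lowest library was under 96%, and 44 were at 98% or more in all 4 libraries. The median spread between the highest and the lowest library was 2.05 points, against 5.18 points in other eligible regions; the threshold itself limits the former to at most 5 points. Exactly 100% in every library was seen in 5 regions. These lay in Tek, the angiopoietin receptor (chr4:94795205-94798027, 2823 bp), Grk5, a G protein-coupled receptor kinase (chr19:60925717-60927199, 1483 bp), a stretch with no gene name (chr14:75425675-75426942, 1268 bp), Rgnef, now Arhgef28 (chr13:98089094-98090078, 985 bp), and Gulp1, an engulfment adaptor (chr1:44692696-44693265, 570 bp). At least 1 library was at exactly 100% in 249 regions (6.77%).

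Just inside the threshold were 3 regions whose lowest library was at 95%. These were chr11:13314367-13315475, with 95%, 95.5%, 100% and 97.8% in control 1, control 2, Cre 1 and Cre 2, a region in Ccdc50 (chr16:27423605-27430801) with 98.9%, 96.2%, 99.5% and 95%, and chr10:27825340-27825757 with 95%, 100%, 100% and 100%. Just outside were regions in Lrrtm4, a synaptic adhesion protein (lowest library 94.9995%), Zfp7 (94.9992%) and Ccdc46 (94.9992%), and in these the highest library was at 96.4%, 95.8% and 95.7%.

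The share of fully methylated regions that lay in a named gene turned with their length. A gene name in the deposited table was carried by 2029 of them (55.2%) and by 50.02% of other eligible regions. Under 1000 bp, 44.4% carried one (95% exact binomial interval 42.0 to 46.8%, counting error only), against 66.4% of other regions that short. From 1000 to under 2000 bp the shares were 62.5% and 61.1%. From 2000 bp up they were 69.0% (65.5 to 72.3%) and 44.0%. With the other eligible regions weighted to the same lengths, 61.4% carried a gene name, which puts the fully methylated regions below rather than above the rest. By overlap with any RefSeq gene the shares were 64.1% and 59.9%, and by overlap with a coding gene 56.4% and 49.7%.

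**Figure D2:**
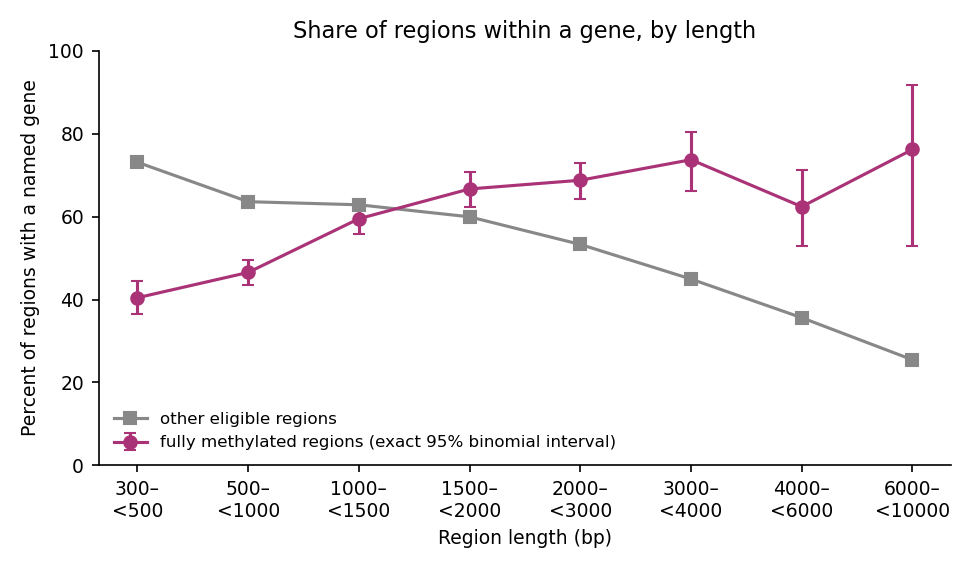
Percent of regions with a gene name in the deposited table (vertical axis) by region length in bp (horizontal axis) for fully methylated regions (circles, bars are exact 95% binomial intervals for counting error only) and other eligible regions (squares). The circles lie below the squares under 1000 bp and above them from 2000 bp up.

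Distance to gene starts differed most among the short regions. Of fully methylated regions under 1000 bp, 3.78% had their middle within 2000 bp of a RefSeq start, at a median distance of 43822 bp. Of other eligible regions that short, 38.7% lay that near, and their median distance was 7184 bp. Distances were known only on chromosomes with start entries, for 1691 fully methylated and 54310 other regions of that length. Of all 56049 other regions that short, 30278 had a mean level under 50%. Among these, 64.6% of those with a known distance lay within 2000 bp of a start, and 74.1% carried a gene name. Short regions with a mean level of 90 to under 95% were close to the fully methylated ones: 4.97% lay within 2000 bp of a start and 49.4% carried a gene name. In short regions averaging 95% or more without reaching it in every library, these shares were 3.20% and 39.8%. From 2000 bp up the gene-name share was 62.8% at mean levels under 50%, 46.5% at 50 to under 80% and 39.9% at 80 to under 90%. It was 52.7% at 90 to under 95% and 65.9% in regions averaging 95% or more without reaching it in every library. In the fully methylated regions it was 69.0%, so the share had no single order with the level.

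Within genes, fully methylated regions were fewest next to the 5′ end. For 1913 of them the gene and its strand were known, and each gene was divided into 10 equal parts. In the part nearest the 5′ end, 0.218% of eligible regions were fully methylated, and in the part nearest the 3′ end 0.737%. The parts between ran from 0.428% to 0.684%. Among regions under 1000 bp the share was 0.296% in the first part and 4.27% in the last, and among longer regions it was highest, at 0.508%, in the sixth part.

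Fully methylated regions had highly methylated neighbours. The adjacent regions that were not themselves fully methylated had a median level of 91.2%, against 83.8% for the neighbours of other eligible regions. For regions under 1000 bp the values were 91.8% and 69.5%. A fully methylated neighbour was found beside 14.6% of the fully methylated regions and 0.854% of the others. Neighbouring regions share their surroundings and can share reads, so they are not independent. By count, 3140 stood alone and 536 formed 243 runs of 2 or more. Over chromosomes the share ran from 0.329% of eligible regions on chromosome 11 to 0.630% on chromosome 10.

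The longest run held 12 adjacent regions of 360 to 1061 bp on chr5:23700683-23709336, with means of 97.8% and 98.6% in control and 98.5% and 97.98% in Cre. It has no gene name in the deposited table and overlaps the lncRNA AI506816 and the predicted gene Gm42226 in RefSeq. A run of 6 lay on chr12:20997063-21007988 in Gm20533, with means of 97.7%, 97.3%, 97.9% and 98.1%. Another run of 6 lay in the 3′ part of Ttn, which encodes the muscle protein titin (chr2:76709458-76713499), with 96.6% and 96.2% in control and 97.5% and 97.6% in Cre. The lowest single value in these 3 runs was 95.2%.

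Runs of 4 were found in Zfp763, Zfp146, Srrm2, Ttc28 and Plec and at 2 places with no gene name. Regions of genes with Zfp names, which encode zinc finger proteins, were looked at as a class after these runs had been seen. Of 4451 such eligible regions 108 were fully methylated (2.43%), in 78 of 352 genes, against 0.521% of all regions with a gene name and 0.423% of those without. In Zfp933 the count was 5 of 12 regions and in Zfp763 4 of 6. These genes have similar copies, and the authors' mapping could split or merge reads between copies.

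The genes with the largest shares were ranked among the 5022 genes with 20 or more eligible regions. Of these, 943 (18.8%) had at least 1 fully methylated region: 640 had 1, 198 had 2 and 105 had 3 or more. Pooled over all 5022 genes, 0.539% of regions were fully methylated (1475 of 273436), and the median gene had none. A share of 5% or more was reached by 116 genes and 10% or more by 21. The ranking is a description of the choice itself, and with 20 to 40 regions per gene 1 region moves a share by several points.

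The first place went to 2310061C15Rik, now Cmc2, a mitochondrial protein of cytochrome c oxidase assembly (chromosome 8), with 6 of 21 regions (28.6%). Its 6 regions lay between 0.550 and 0.863 of the way along the gene and had means of 96.7% and 97.5% in control and 97.4% and 96.5% in Cre. The gene's other regions averaged 76.7%. In single libraries 38.1%, 47.6%, 42.9% and 38.1% of its regions were at 95% or more. By overlap with RefSeq genes its share was 16.7%.

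Plec was next, with 14 of 63 regions (22.2%), the most of any gene. It encodes plectin, a large linker of intermediate filaments (chr15:76170974-76231378, minus strand). All 14 lay from 0.657 to 0.978 of the way to its 3′ end and were 323 to 1014 bp long, where its regions had a median of 673 bp. They averaged 97.3% and 97.1% in control and 97.0% and 96.8% in Cre, while the gene's other regions averaged 66.3%. A run of 4 among them, chr15:76174155-76175921, held no value under 95.2%. Plec as a whole averaged 73.1%, below the median gene's 79.3%.

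Fat1, an atypical cadherin, had 11 of 78 regions (14.1%) on chromosome 8. They stood in groups: 3 were between 0.145 and 0.163 of the gene's length, 5 between 0.762 and 0.789, and 3 apart from these. They were 345 to 902 bp long, where the gene's regions had a median of 1321 bp, and averaged 97.2%, 97.1%, 96.7% and 96.7%. Ttn had 12 of 162 regions (7.41%), 11 of them from 0.803 of its length. Its mean level of 89.6% was the eighth highest of the 5022 genes.

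**Figure D3:**
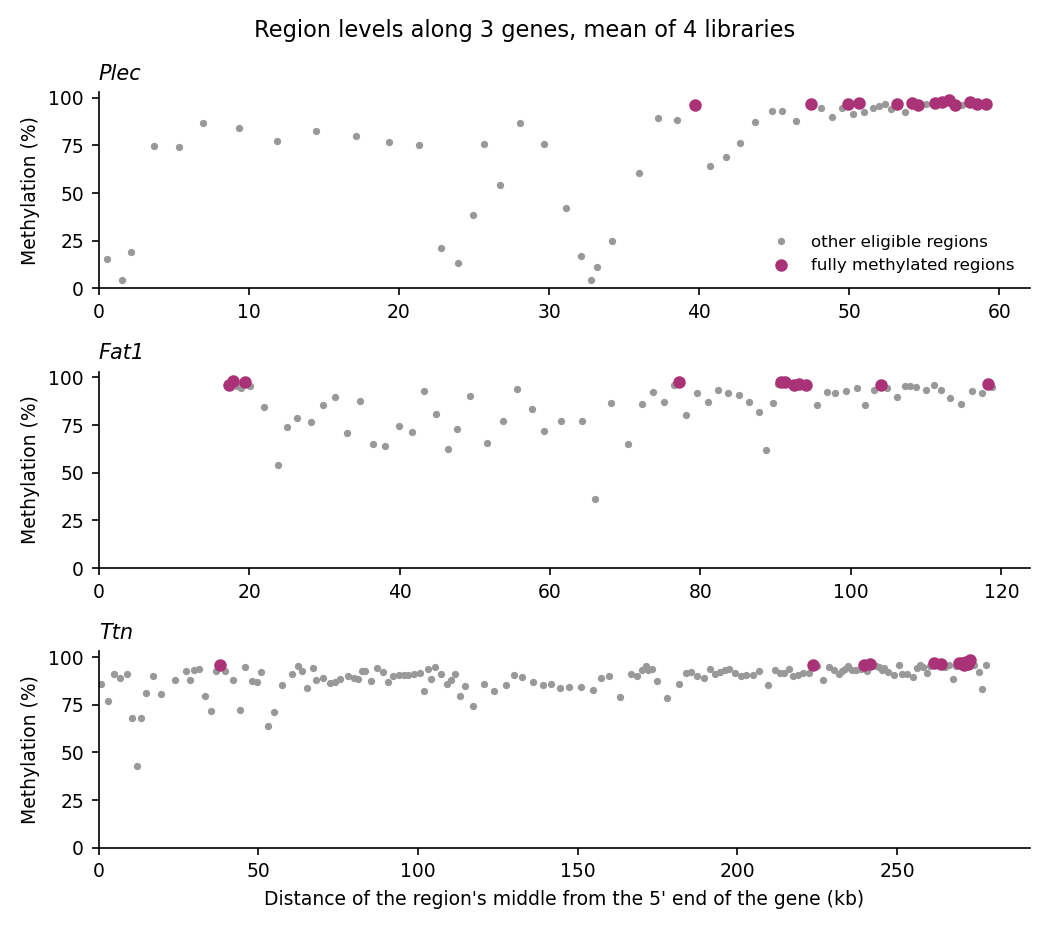
Mean methylation level over 4 libraries in percent (vertical axes) of each eligible region along Plec, Fat1 and Ttn, by distance of its middle from the gene's 5′ end in kb (horizontal axes). Large points are fully methylated regions, small points the others. The 14 points of Plec lie beyond 0.657 of its length, after regions with levels near 0, and no region carries the name Fat1 in the first stretch of that gene.

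The other genes of the first 20 are ordered here by known role, a grouping made after the ranks were seen and not tested. Mtbp, an Mdm2-binding protein that also acts in replication control, had 4 of 28 regions (14.3%). It had the highest mean level of all 5022 genes, 92.2% and 92.3% in control and 92.5% and 92.6% in Cre. Fancm, the DNA translocase of the Fanconi anaemia pathway, and Helb, a DNA helicase, each had 3 of 22 (13.6%). E2f7, an atypical E2F repressor, had 4 of 33 (12.1%) with a gene mean of 89.6%. Pms1, a mismatch repair protein, had 3 of 30 (10%) with a gene mean of 90.7%, the third highest. Pot1b, a protein of telomere ends, had 2 of 20 (10%). Centrosome and spindle genes were Cep57l1, with 6 of 40 (15%), and Tubgcp2 of the gamma-tubulin complex, with 3 of 22 (13.6%).

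Vsig10, an immunoglobulin domain protein, had 4 of 24 regions (16.7%). Pppde1, now Desi2, had 3 of 21 (14.3%), and Usp32, a deubiquitinase, 4 of 40 (10%). The sorting nexin gene Snx6 had 3 of 22 (13.6%), the nuclear pore gene Nup107 3 of 27 (11.1%), the tetraspanin gene Tspan12 4 of 37 (10.8%), the predicted gene Gm20498 5 of 48 (10.4%) and the mitochondrial carrier gene Sfxn1 2 of 20 (10%). Wdsub1, also with 2 of 20, tied with Pot1b and Sfxn1 and came next only by the order of symbols. Celsr2, an adhesion receptor of the cadherin family, had 3 of 27 (11.1%), all 3 between 0.0604 and 0.117 of its length. Its fully methylated stretch was thus near the 5′ end, unlike that of Plec. By number, Wwox, an oxidoreductase gene spanning a fragile site, had 13 of 519 regions (2.50%) and Gm20388 13 of 2682 (0.485%).

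**Figure D4:**
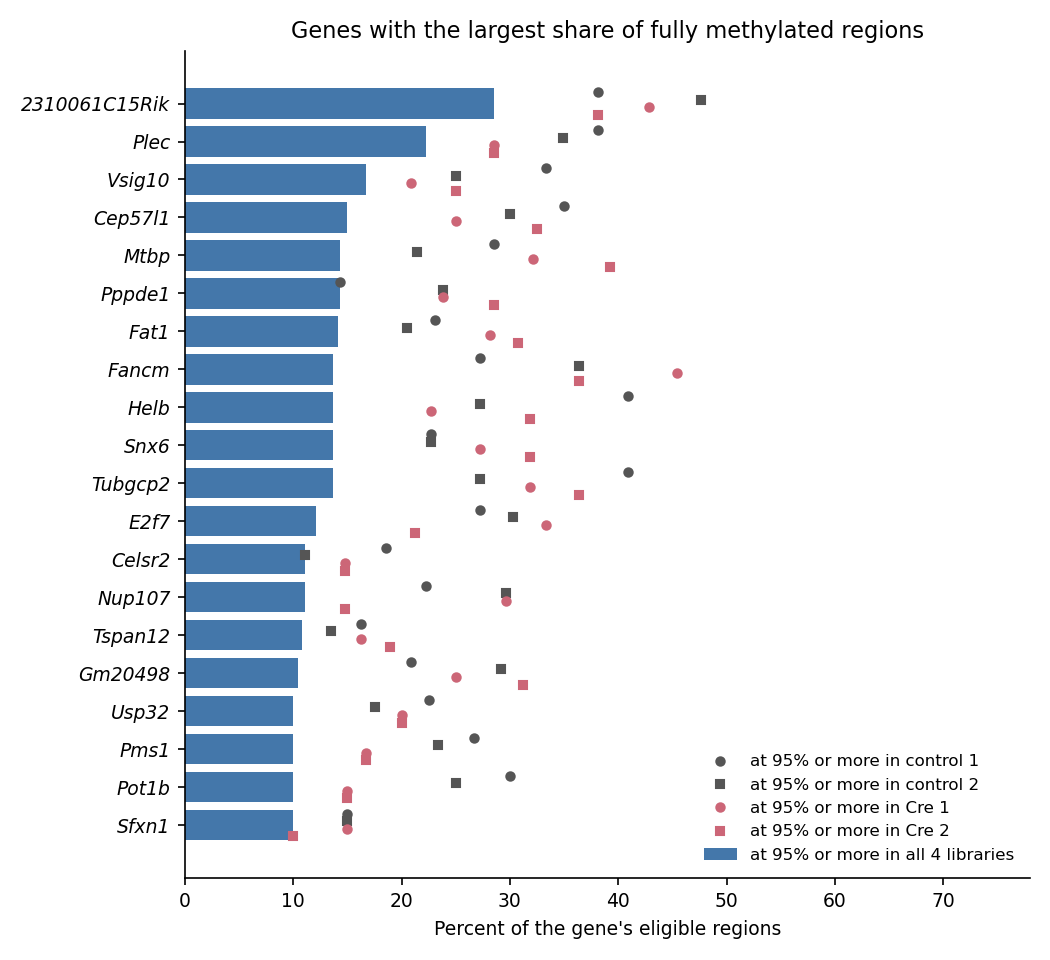
Percent of each gene's eligible regions (horizontal axis) at 95% or more in all 4 libraries (bars) and in each library alone (points) for the 20 genes with the largest share. The bars run from 28.6% for 2310061C15Rik to 10% for Sfxn1; a point cannot lie below its bar, since each library alone asks less than all 4 together.

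For 14 gene lists of pathways and cell types, the pooled shares stand beside 0.539% of regions, and the genes with at least 1 such region beside 18.8% of genes, over all 5022 genes. DNA repair and replication genes stood at 1.45% of regions (9 of 28 measured genes with at least 1, led by Fancm at 13.6% and Blm, a RecQ helicase, at 6.90%). Ubiquitin ligases and deubiquitinases stood at 1.06% (9 of 33 genes, led by Usp32 and Usp25, the latter at 4.88%). Sarcomere genes stood at 1.02% (3 of 23 genes), and 12 of their 15 regions were those of Ttn. Neural adhesion genes were at 0.435% (19 of 57, led by Fat1 and Celsr2), and chromatin regulators at 0.417% (7 of 48, led by Whsc1, now Nsd2, at 9.52%). In every list the median gene had no fully methylated region, as over all genes.

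Lists of neuronal and glial genes had lower pooled shares. Glutamatergic synapse genes stood at 0.138% of 5076 regions (6 of 42 genes), where Gria4, an AMPA receptor subunit, had 1 of 71 and Grm5, a metabotropic receptor, 1 of 89. Ion channels were at 0.250% (11 of 60 genes), led by Trpc6 with 1 of 31. Astrocyte genes were at 0.0901% (1 of 10), oligodendrocyte genes at 0.198% (2 of 14) and haematopoietic and microglial genes at 0.149% (3 of 27). Axonemal dyneins were at 0.391% (4 of 13), cytoplasmic motor and spectrin-ankyrin genes at 0.385% (10 of 43), collagens and basement membrane genes at 0.329% (5 of 48) and ABC transporters at 0.255% (3 of 29). Region lengths and CG content differ between genes and were not matched, so these shares do not single out a list.

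Among the methylation enzymes, Tet2 had 1 of 28 regions fully methylated (chr3:133478906-133480334, 1429 bp). That region was at 95.1% and 96.7% in control and 96.5% and 97.0% in Cre, and the groups overlapped. Tet1 had 2 of 46, and Tet3 0 of 47. Dnmt1, with 0 of 37, and Dnmt3a, with 0 of 57, had none, nor had Camk2a, with 0 of 36. Camk2a, the kinase gene that the Cre is named for, had gene means of 58.8% and 61.7% in control and 62.5% and 62.3% in Cre, where the median gene was at 79.3%.

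How far such a region was again fully methylated in a library not used to choose it was read by leaving out each library in turn. Asked of the other 3 libraries alone, the threshold was met by 5528, 5550, 5531 and 5669 regions when control 1, control 2, Cre 1 and Cre 2 were left out. Of these, 66.5%, 66.2%, 66.5% and 64.8% were at 95% or more in the library left out, beside 3.18%, 2.87%, 3.18% and 2.72% of all eligible regions in it. Between 97.2% and 98.1% were at 90% or more, beside 18.8% to 20.02% of all eligible regions. The regions at 95% or more in the library left out were the same 3676 each time. The shares were thus similar only because the counts of regions chosen in the other 3 libraries were similar. Most of the regions that missed 95% in the library left out were still at 90% or more there.

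**Figure D5:**
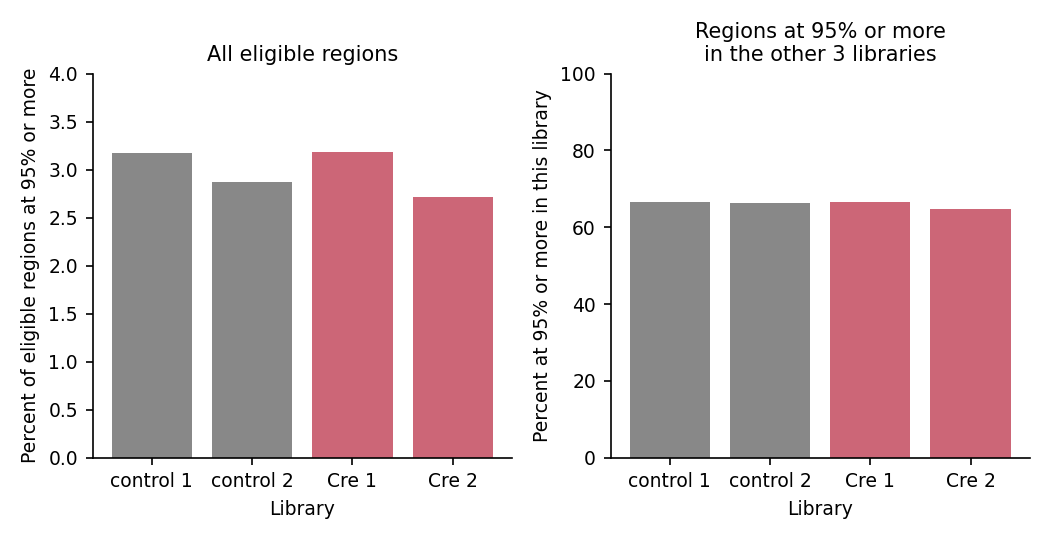
Percent of regions at 95% or more in each library (vertical axes), over all eligible regions (left) and over regions at 95% or more in the other 3 libraries (right), for 2 control (grey) and 2 Cre (red) libraries. The left bars lie between 2.72% and 3.18%, the right bars between 64.8% and 66.5%.

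The groups did not separate in the share of eligible regions at 95% or more in each library alone. The share of eligible regions at 95% or more averaged 3.02% ± 0.217 (SD, n = 2) in control and 2.95% ± 0.328 (SD, n = 2) in Cre libraries. The difference, Cre minus control, was -0.0748 points (exact two-sided permutation test over 6 arrangements, p = 1), smaller than the spread within either group. This design cannot give a p under 0.333. Without control 1 or without Cre 2 the difference turned positive, at 0.0787 and 0.157 points. With all libraries and regions weighted by their length, it was -0.0602 points.

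Within the 3676 regions the choice of 95% or more in every library fixes much of any comparison between the groups, so the following values are a description. Their mean levels were 96.9% and 96.8% in control and 96.9% and 96.8% in Cre. The difference per region, Cre minus control, ran from -3.71 to 4.42 points with a median of -0.00392; the threshold in every library keeps it within 5 points. Both Cre libraries were above both control libraries in 609 regions (16.6%), beside 16.2% of all eligible regions, and below both in 610 (16.6%), beside 17%. Over all 849014 regions with a value in every library, limma gave 0 regions with an adjusted p under 0.05 (0% of regions in either direction). An unadjusted p under 0.05 was found for 39068 regions, 4.60% of those tested. The smallest adjusted p among the 3676 regions was 0.937 by limma.

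Regions chosen on one group alone were then read in the other, which the choice did not use. Both control libraries were at 95% or more in 9833 regions, and 57.7% and 56.2% of these were so in Cre 1 and Cre 2. Both Cre libraries were so in 9606 regions, and 57.8% and 57.5% of these were so in control 1 and control 2. Of the 9833 regions of the first set, 0 were under 85% in both libraries of the other group, and of the 9606 of the second set 12 were. The same counts over all eligible regions were not made, and the depth of these levels is unknown. No direction is therefore read from the 0 and the 12. The regions named here were chosen after their values were seen. By the higher of the 2 Cre values, the lowest of the first set was chr12:54705438-54709358 (100% and 97.5% in control, 75% and 85.6% in Cre). Next were chr4:21948133-21948531 (97.4% and 98.4% against 78.9% and 86.0%) and chr2:53780183-53783742 (95.7% and 98.1% against 86.1% and 80.02%). By the higher of the 2 control values, the lowest 3 of the second set lay in named genes. The lowest was in Abhd2, a lipase gene (chr7:79338200-79341441, 63.1% and 65.1% in control, 97.1% and 98.6% in Cre). Next were Rgl1, a Ral exchange factor (chr1:152664076-152667776, 78.6% and 74.3% against 98.7% and 100%), and Srgap2 (chr1:131302145-131308481, 79.6% and 80.2% against 95.2% and 96.6%). None of these 6 passed the limma test over all regions.

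At the level of genes, the mean level over a gene's eligible regions was compared by limma over the 5022 genes. No gene was higher with Cre (0%) and 1 was lower (0.0199%). An unadjusted p under 0.05 was found for 266 genes, 5.30% of those tested. The gene, St6gal2, a sialyltransferase named after its result was seen, had no fully methylated region and was at 76.4% and 75.7% in control and 71.1% and 69.5% in Cre (adjusted p = 0.0104 by limma). On the percent scale no gene passed (smallest adjusted p = 0.0702 by limma). Without control 1 or without control 2 none passed either, with smallest adjusted p of 0.329 and 0.0957 by limma. None of the first 20 genes by share passed. The nearest was Pot1b, at 85.7% and 84.9% in control and 82.8% and 82.1% in Cre, a difference of -2.83 points (adjusted p = 0.144 by limma). Its 2 fully methylated regions, chosen for being high in every library, averaged 97.7% and 96.8% in control and 99.1% and 98.3% in Cre.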

How the data were processed

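The authors deposited percent methylation per region and library for 849172 regions on mm10, with a gene name for part of them. Per the submitters' processing notes the tools named were Bismark 0.19.0, Trim Galore 0.4.5, FastQC 0.11.5 and, without a version, edgeR. The drawing of regions, the averaging of cytosines and any coverage minimum were not given in the sources used here. Libraries were grouped by title. The members, gene lists and tests were chosen with earlier results of these data known. Length was end minus start plus 1. Eligible regions were autosomal, 300 to under 10000 bp, with a value in all 4 libraries. Gene shares used the deposited gene name and genes of 20 or more eligible regions. Named genes were the 20 with the largest share, those with most members, the 2 highest and the lowest of each list (not all are printed), and the Tet, Dnmt and Camk2a genes; other names are marked as chosen after their values were seen. The planned count test could not be used, since the table holds no counts; limma 3.58.1 in R 4.3.3 was fitted to log2((level + 0.01) / (1 - level + 0.01)), level as a fraction, with Benjamini-Hochberg adjustment at 0.05, and was tested on simulated data. Gene names, starts, promoters and hairpins came from RefSeq on GRCm38.p6. Of 25182 names 21883 matched a gene at the position of the name's regions, 2178 of them by an older symbol. Of members with a name, 97.1% carried a name that matched. Replicate numbers were not taken to pair libraries. Alternatives were other levels, lengths, gene definitions, scales and leaving out each library. Of 15 gene lists, 1 is not reported here.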

Additional observations from a re-analysis of the deposited data

Results flagged for a closer look

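Regions at 95% or more in all 4 libraries were also found outside the bounds used above, in data outside the main measurement, used above only in the test over all regions. On chromosome X there were 139 of 33677 (0.413%), with a median length of 1051 bp, and on chromosome Y 14 of 5213 (0.269%). Among autosomal regions under 300 bp there were 60 of 25392 (0.236%), a lower share than the 3.54% of regions of 300 to under 500 bp. Among autosomal regions of 10000 bp or more there was 1 of 2078 (0.0481%), 12496 bp long.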

How the results depend on the processing

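The count of 3676 regions rests on the threshold: 71686 regions were at 90% or more in all 4 libraries, 44 at 98% and 5 at 100%, with median lengths of 1979, 672.5 and 1268 bp and gene-name shares of 57.0%, 47.7% and 80%. At 1000 to under 5000 bp the count was 1875, the median 1707 bp and the gene-name share 65.1%, and overlap with RefSeq genes gave 64.1%. Asking the threshold of 3 libraries gave 5528 to 5669 regions, medians of 1130 to 1157 bp and gene-name shares of 54.5% to 55.1%. The pooled share in genes of 20 or more regions was 10.8% at 90%, 0.00622% at 98% and 0.795% to 0.825% over 3 libraries. Of the first 20 genes, 14 were kept with each library left out, 8 at 90%, 1 at 98%, 16 by RefSeq overlap, 4 with genes of 10 or more regions allowed and 5 with 40 or more asked; of 165 values for these genes, 45 moved by over 1.5 times. In settings chosen after seeing the data, gene-name shares ran from 42.8% to 43.8% under 1000 bp and 66.7% to 69.2% from 2000 bp up with each library left out. At 90% they were 45.2% and 58.9%, and at 98% 45.5% and 60%. The group difference in the share at 95% or more ran from -0.306 to 0.157 points with each library left out, reversing to 0.0787 without control 1 and 0.157 without Cre 2, the cause of which was not tested. Region counts by limma stayed at 0 in all 8 other settings, the replicate block among them. Gene counts by limma were 12 with the replicate block (8 higher and 4 lower with Cre), 0 on the percent scale, and 0 to 2 with each library left out; the cause was not tested. Over regions, the replicate 1 minus replicate 2 difference in control and that in Cre had a correlation of 0.00648, which gave no sign that libraries of the same number belong together. A coverage minimum was not run, because the table gives no coverage, and the precision of single levels is therefore unknown.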
